A study of Mus musculus with 39 samples.

Results

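The genes described here are 41 genes of cell division and DNA replication, picked by symbol from the 54735 genes counted in mouse liver and spleen. They comprise 15 replication genes (E2f1, Ccne1, Ccne2, Cdc6, Cdt1, Mcm2 to Mcm7, Pcna, Tyms, Rrm1 and Rrm2) and 26 mitosis genes (Cdk1, Ccna2, Ccnb1, Ccnb2, Plk1, Aurka, Aurkb, Bub1, Bub1b, Birc5, Cdc20, Ube2c, Tpx2, Kif11, Kif20a, Kif23, Kif4, Prc1, Nusap1, Racgap1, Anln, Mki67, Top2a, Cenpa, Cenpe and Cenpf). All 41 were found in both tissues and passed the filter on low values, a mean of at least 10. RNA came from C57BL/6 mice at 4 weeks of age, in 4 groups per tissue. Mice with a knockout of SXR/PXR that received PCB-153, a persistent polychlorinated biphenyl, are called KO PCB, and those that received the vehicle DMSO are called KO DMSO. Wild-type mice exposed to PCB-153 are called WT PCB, and wild-type mice given DMSO are called WT DMSO. The dose was about 54 µg per kg per day, begun around birth. Each group had 5 libraries, except the WT DMSO spleens with 4, which gave 39 libraries. SXR/PXR is a nuclear receptor for drugs and other foreign compounds. Neither the deleted part of its gene nor the number of litters is given in the labels, which also do not say that each library came from its own animal, so p-values measure the spread between these samples.

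Cells that prepare to divide first free E2F factors from the retinoblastoma proteins, and E2F drives genes for cyclin E, for the loading of the MCM helicase on replication origins and for the supply of nucleotides. Mitosis genes are transcribed later, under the MuvB complex together with B-MYB and FOXM1, and their products build the spindle, hold the checkpoint and end mitosis through the anaphase-promoting complex. In the spleen of young mice much of the division is that of erythroid and lymphoid precursors, while most hepatocytes of the young liver are leaving the cell cycle and becoming polyploid.

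The liver libraries held 15.23 to 28.65 M assigned reads and the spleen libraries 16.1 to 29.52 M. Values are normalised read counts, that is reads divided by 1 size factor per library, and each tissue was normalised separately. Nr1i2, which encodes SXR/PXR, had a median of 891 in KO PCB and 759 in KO DMSO livers, against 1297 in WT PCB and 1546 in WT DMSO livers. In spleen it went against the labels, with a median of 53.6 in libraries labelled KO PCB and 55.5 in those labelled KO DMSO, against 0 in both wild-type groups. The spleens are therefore called labelled-KO, and every direction drawn between genotypes in spleen rests on these labels. Hepatocyte markers (10 genes) summed to at least 2283905 in each liver, and B cell markers (7 genes) to at least 20173 in each spleen. Labelled-KO PCB spleens 1 and 4 carried reads of pancreatic acinar genes (15 genes), which summed to 11873 and 93810 there and to 550 to 1089 in the other 17 spleens. Hepatocyte genes summed to 13741 in labelled-KO DMSO spleen 4 and to at most 4459 in the other spleens.

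Promoters of the mitosis and replication classes differed in how often they held short motifs, and 5 promoters are printed as examples. Promoters came from RefSeq (GRCm38.p6), reaching from 250 bases before to 50 bases after each gene's start. Of the 41 genes, 35 had a promoter that could be used. Searched on both strands were the cell cycle genes homology region (CHR, TTTGAA or TTCGAA), bound by MuvB, the CCAAT box (CCAAT), bound by NF-Y, and E2F sites spelled TTTCGCG, spelled TTTGGCG or spelled TTTCCCG. A CHR stood in 18 of 22 mitosis promoters (81.8%) and in 2 of 13 replication promoters (15.4%), against 21.7% of all genes with a promoter. A CCAAT box stood in 86.4% of mitosis and 61.5% of replication promoters, against 41.1% of all. E2F letters stood in 46.2% of replication and 13.6% of mitosis promoters, against 6.38% of all. A match describes letters in this window and was not tested as a binding site. In the stretches below, given 5′ to 3′ on the gene's strand, capitals mark these 3 motifs on either strand, and E2F matches on opposite strands overlap in Mcm6 and Mcm5. Cdc20 (chr4:118437344-118437473, minus strand), Cdk1 (chr10:69352913-69353042, minus strand) and Ube2c (chr2:164769799-164769928, plus strand) are mitosis genes. Mcm6 (chr1:128359706-128359835, minus strand) and Mcm5 (chr8:75109349-75109508, plus strand) are replication genes. Each stretch ends at the base before the annotated start.
Cdc20: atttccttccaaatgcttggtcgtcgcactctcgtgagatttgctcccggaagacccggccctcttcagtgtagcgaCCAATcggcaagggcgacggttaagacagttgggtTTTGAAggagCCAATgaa
Cdk1: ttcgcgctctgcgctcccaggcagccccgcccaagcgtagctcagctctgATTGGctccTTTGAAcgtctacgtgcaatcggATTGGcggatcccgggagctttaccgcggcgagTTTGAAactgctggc
Ube2c: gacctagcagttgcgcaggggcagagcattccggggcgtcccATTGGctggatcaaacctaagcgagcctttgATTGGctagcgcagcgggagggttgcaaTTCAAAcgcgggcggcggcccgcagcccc
Mcm6: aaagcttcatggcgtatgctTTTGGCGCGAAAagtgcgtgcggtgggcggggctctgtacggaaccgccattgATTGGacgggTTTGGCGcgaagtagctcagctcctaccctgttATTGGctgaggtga
Mcm5: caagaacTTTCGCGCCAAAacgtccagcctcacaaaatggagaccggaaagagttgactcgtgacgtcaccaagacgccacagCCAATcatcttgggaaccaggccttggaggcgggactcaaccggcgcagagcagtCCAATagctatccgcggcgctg

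In Cdc20 the CHR lies at position -18 from the start, between CCAAT boxes at -53 and -8. Cdk1 has a CHR at -71 and at -15, behind CCAAT boxes at -80 and -48, and E2F letters at -131 that begin before the printed stretch, and Ube2c has its CHR at -29 behind boxes at -88 and -57. Mcm6 has E2F letters at -110, -105 and -47 and no CHR, and Mcm5 has them at -153 and -148.

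Transcripts of these genes were far more abundant in spleen. The 41 genes together took 5704 to 11340 reads per 1000000 assigned ones in the spleens and 288.5 to 545.7 in the livers. Scaled per kb of exon and per 1000000 reads, the spleen level divided by the liver level had a median of 21.2 over the 41 genes, with 4.24 for Cdc20, the activator of the anaphase-promoting complex, and 104 for Cdc6, which loads the helicase. Scaled so, the highest medians in spleen were those of Rrm2 (164), a subunit of ribonucleotide reductase, Mki67 (155), which coats mitotic chromosomes, and Pcna (149.6), the clamp of the replication fork. In liver they were those of Pcna (12.0), Cdc20 (10.7) and Ccnb2 (5.65), a mitotic cyclin. These tissue levels come from tables that the authors normalised separately and were not tested.

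In spleen, the comparison of PCB-153 with vehicle within the labelled knockout asks, by the labels, what differed with the compound where the receptor was deleted. Of the 41 genes, 13 rose in labelled-KO PCB against labelled-KO DMSO spleens and 0 fell, by limma on log2(value + 1) with an adjusted p under 0.05 over all 19058 genes tested. Of all genes 5.3% were called, 2.78% as higher. All 13 were mitosis genes. The replication genes gave 0 of 15 by limma, 13 of them with an unadjusted p under 0.05, and the mitosis genes 13 of 26. Of all genes 24.1% had an unadjusted p under 0.05. All 41 had a higher mean, with log2 fold changes of 0.35 to 0.58 and a median of 0.45, against -0.0079 over all genes, and these stayed above 0 under quantile, TMM and DESeq2 scaling. The median was 0.40 for replication and 0.50 for mitosis genes, and that difference was not tested. In bulk tissue, more cells of a dividing type and more RNA per cell cannot be told apart.

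**Figure D1:**
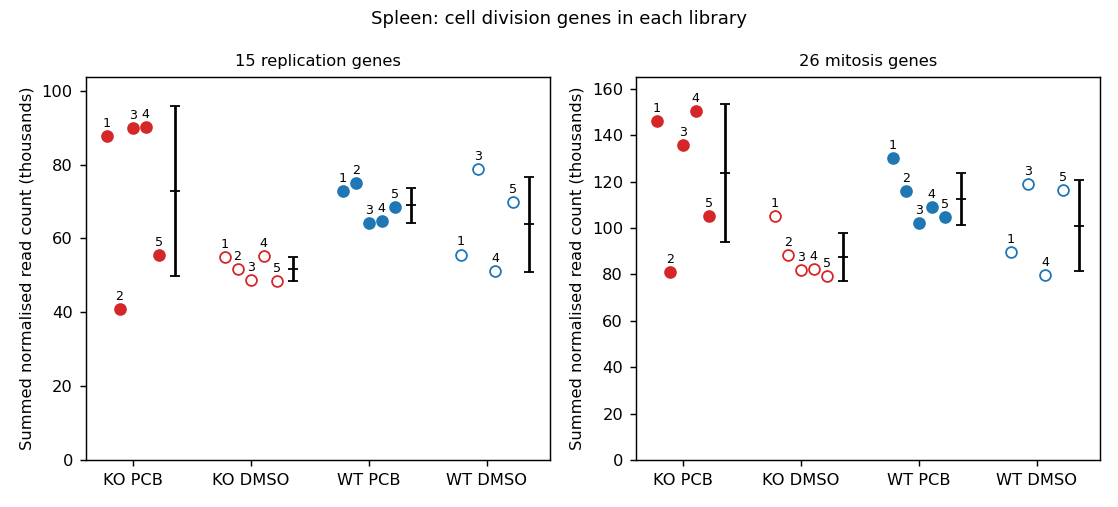
Summed normalised read counts (in units of 1000) of the 15 replication genes (left) and the 26 mitosis genes (right) in each spleen library, with the number of the library above its point and the group mean ± SD beside it; KO stands for the spleens labelled knockout. In the labelled-KO PCB group libraries 1, 3 and 4 lie above every other spleen, and library 2 lies at the bottom for the replication genes.

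The labelled-KO PCB group was split. The 41 genes summed to 233740, 122035, 225638, 240754 and 160411 in labelled-KO PCB spleens 1 to 5, against 160122, 139958, 130773, 137472 and 127557 in labelled-KO DMSO spleens 1 to 5. They summed to 203092, 190971, 166238, 173674 and 173306 in WT PCB spleens, against 145065, 197726, 130714 and 186124 in WT DMSO spleens. Libraries 1, 3 and 4 of the labelled-KO PCB group were the 3 highest of all 19, and within that group library 2 was the lowest and library 5 the next lowest in all 41 genes. One of libraries 1, 3 and 4 was the highest spleen for each gene, library 1 for 14, library 3 for 10 and library 4 for 17 genes. Library 3 had a pancreatic sum of 822 and library 5 one of 1089, both below those of libraries 1 and 4. Both lay above the labelled-KO DMSO (550 to 691), WT PCB (589 to 681) and WT DMSO (570 to 669) spleens. Library 2, at 637, lay inside these ranges.

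Without labelled-KO PCB library 2, all 41 genes passed the test (median log2 fold change 0.61), when 19.4% of all genes did. Without libraries 1 and 4, the ones with pancreatic reads, 0 of 41 passed by limma, when 0.121% of all genes did. The median was then 0.25, 40 genes still had a higher mean, and Ccne2 stood at -0.03. Leaving out library 1, 3 or 4 alone also gave 0 by limma, as did leaving out labelled-KO DMSO library 3, 4 or 5, when 0.0525% to 0.619% of all genes were called. In these 6 fits all 41 genes still had a higher mean, with medians of 0.37 to 0.46. With labelled-KO DMSO library 2 left out 1 gene passed, when 403 of all 19058 genes were called. By edgeR 16 of 41 genes passed (5.15% of all genes), and by DESeq2, as in the authors' deposited table, 35 (5.61% of genes with a p-value). The 6 genes not called there were the replication genes Ccne1, Ccne2, Cdc6, Cdt1, Mcm4 and Pcna.

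**Figure D2:**
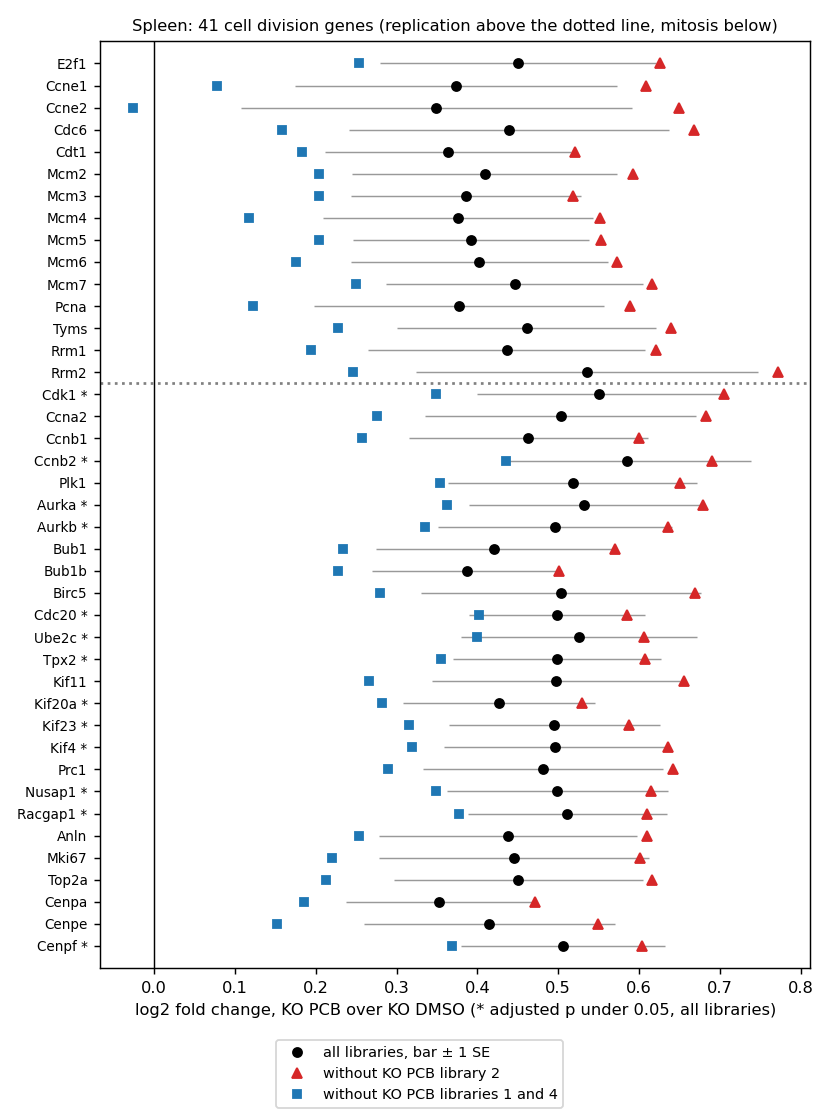
Log2 fold change of each of the 41 genes in spleens, labelled-KO PCB over labelled-KO DMSO, with all libraries (black, bars ± 1 SE), without labelled-KO PCB library 2 (red) and without libraries 1 and 4 (blue). All black and red points lie above 0, and among the blue ones Ccne2 lies at -0.03 and Ccnb2 is highest at 0.44.

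Among the regulators of mitotic exit, Cdc20 had 2194, 1497, 2216, 2022 and 1705 normalised reads in labelled-KO PCB spleens 1 to 5, against 1445, 1331, 1335, 1323 and 1312 in labelled-KO DMSO spleens 1 to 5. Its groups did not overlap, which held for no other member, and 1.82% of all genes were likewise higher without overlap. Cdc20 rose by 0.50 ± 0.11 on the log2 scale (SE, adjusted p = 0.026 by limma), and its WT PCB values were 1824, 1887, 1690, 1752 and 1750, against 1538, 1969, 1331 and 2024 in WT DMSO spleens. Cdc20 (chr4:118432901-118437352) shares 10.6% of its 50-base stretches with other genes, so its count is uncertain. Ube2c, the conjugating enzyme that works with the same complex, rose by 0.53 ± 0.15 on the log2 scale (SE, adjusted p = 0.0415 by limma). It had 4782, 3309, 4884, 4670 and 3387 in labelled-KO PCB and 3480, 3072, 2456, 2726 and 2760 in labelled-KO DMSO spleens. Ube2c values were 3696, 3485, 3569, 3079 and 3633 in WT PCB and 2798, 4399, 2287 and 3664 in WT DMSO spleens, and 16.0% of its 50-base stretches are shared with other genes.

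Of the mitotic cyclins and their kinase, Ccnb2 and Cdk1 rose, and Ccna2 and Ccnb1 did not pass. Ccnb2 stood at 3426, 2135, 3391, 3272 and 2379 in labelled-KO PCB spleens, against 2353, 1971, 1607, 1831 and 1863 in labelled-KO DMSO spleens. Its difference of 0.58 ± 0.15 on the log2 scale (SE, adjusted p = 0.0348 by limma) was the largest of the 41, although its labelled-KO PCB library 2 (2135) lay below labelled-KO DMSO library 1 (2353). Cdk1, the kinase that both cyclins activate, had 3454, 1787, 3199, 3316 and 2364 in labelled-KO PCB spleens, against 2175, 1866, 1759, 1847 and 1737 in labelled-KO DMSO spleens. Its difference was 0.55 ± 0.15 on the log2 scale (SE, adjusted p = 0.0398 by limma), and library 2 again fell inside the vehicle range. Cyclin B1 (Ccnb1) had 4202, 2214, 3649, 3825 and 2729 in labelled-KO PCB and 2779, 2418, 2131, 2264 and 2198 in labelled-KO DMSO spleens, which differed by 0.46 ± 0.15 on the log2 scale (SE, adjusted p = 0.066 by limma). Ccnb1 values were 3493, 3369, 2768, 2636 and 2828 in WT PCB and 2444, 3444, 2194 and 2866 in WT DMSO spleens, and 23.4% of its 50-base stretches recur elsewhere, among others in a pseudogene.

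The spindle and cytokinesis genes held 6 of the 13 calls among 9 genes (Racgap1, Tpx2, Kif23, Nusap1, Kif4 and Kif20a), while Kif11, Prc1 and Anln did not pass. Racgap1, which acts at the cleavage furrow, had 3161, 2012, 2941, 2934 and 2371 in labelled-KO PCB spleens, against 2185, 1808, 1771, 1780 and 1776 in labelled-KO DMSO spleens. Its difference was 0.51 ± 0.12 on the log2 scale (SE, adjusted p = 0.0284 by limma), and only labelled-KO DMSO library 1 (2185) exceeded labelled-KO PCB library 2 (2012). Tpx2, which activates Aurora A on the spindle, had 3936, 2512, 4010, 3962 and 2908 in labelled-KO PCB spleens, against 2807, 2449, 2329, 2362 and 2150 in labelled-KO DMSO spleens. It rose by 0.50 ± 0.13 on the log2 scale (SE, adjusted p = 0.0327 by limma). Kif23, the motor partner of Racgap1, had 2620, 1647, 2111, 2511 and 1905 in labelled-KO PCB spleens, against 1778, 1576, 1387, 1495 and 1346 in labelled-KO DMSO spleens, and rose by 0.50 ± 0.13 on the log2 scale (SE, adjusted p = 0.0352 by limma). For both genes library 2 lay above every vehicle library except the first. Nusap1, a microtubule bundler, had 5028, 3060, 4818, 4856 and 3734 in labelled-KO PCB spleens, against 3689, 3112, 2870, 2678 and 2700 in labelled-KO DMSO spleens, and rose by 0.50 ± 0.14 on the log2 scale (SE, adjusted p = 0.0397 by limma). The motors Kif4 and Kif20a rose by 0.50 and 0.43 on the log2 scale.

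Of the mitotic kinases and the checkpoint, Aurka and Aurkb rose and Plk1, Bub1, Bub1b and Birc5 did not pass. Aurka, the kinase of the spindle poles, had 1957, 1155, 2015, 2184 and 1569 in labelled-KO PCB spleens, against 1300, 1213, 1126, 1163 and 1192 in labelled-KO DMSO spleens, and rose by 0.53 ± 0.14 on the log2 scale (SE, adjusted p = 0.0375 by limma). Aurkb, the kinase of the centromere, rose by 0.50 ± 0.14 on the log2 scale (SE, adjusted p = 0.0486 by limma). Plk1, whose log2 fold change was 0.52 ± 0.15 (SE), missed the threshold with a limma adjusted p of 0.0513. Of the chromosome genes 1 of 5 rose, Cenpf, a protein of the kinetochore. Cenpf had 3253, 2161, 2995, 3301 and 2668 in labelled-KO PCB spleens, against 2507, 2055, 1924, 1733 and 1871 in labelled-KO DMSO spleens, a rise of 0.51 ± 0.13 on the log2 scale (SE, adjusted p = 0.0302 by limma). Mki67, the source of the Ki-67 antigen, had 44398, 24228, 41060, 50021 and 32754 in labelled-KO PCB spleens, against 35181, 27712, 26402, 25397 and 23677 in labelled-KO DMSO spleens, and its log2 fold change of 0.45 ± 0.17 (SE) did not pass (limma adjusted p = 0.111). Top2a, the topoisomerase that untangles chromosomes, had 15533, 7605, 13652, 15281 and 10202 in labelled-KO PCB spleens, against 10140, 8928, 8638, 8523 and 7907 in labelled-KO DMSO spleens, and did not pass either (0.45 ± 0.15 on the log2 scale, limma adjusted p = 0.084). For Mki67 library 2 lay below 4 of the 5 vehicle libraries, and for Top2a below all 5. Top2a had 13314, 12504, 10385, 10956 and 10817 in WT PCB and 10029, 12565, 8399 and 11355 in WT DMSO spleens.

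Of the replication genes 0 of 15 passed by limma, and library 2 lay low in them. Mcm5, a subunit of the helicase, had 6894, 3596, 7217, 6772 and 4619 in labelled-KO PCB spleens, against 4252, 4227, 4008, 4707 and 4239 in labelled-KO DMSO spleens (log2 fold change 0.39 ± 0.15, limma adjusted p = 0.11). Pcna had 9875, 4313, 9925, 10328 and 6387 in labelled-KO PCB spleens, against 6466, 6093, 5441, 6277 and 5608 in labelled-KO DMSO spleens (0.38 ± 0.18 on the log2 scale, limma adjusted p = 0.202), and shares 19.1% of its 50-base stretches with a pseudogene. Cyclin E1 (Ccne1) had 2311, 925, 2331, 2539 and 1412 in labelled-KO PCB spleens, against 1465, 1349, 1292, 1461 and 1312 in labelled-KO DMSO spleens (0.37 ± 0.20 on the log2 scale, limma adjusted p = 0.254). In each of these 3 genes library 2 was below all 5 labelled-KO DMSO libraries, while libraries 1, 3 and 4 were above all of them. Mcm5 had 5830, 6140, 5232, 5313 and 5575 in WT PCB and 4566, 6272, 4511 and 5785 in WT DMSO spleens. Pcna had 8072, 8603, 7624, 7094 and 7674 in WT PCB and 6392, 9401, 5816 and 7130 in WT DMSO spleens. Ccne1 had 1887, 2014, 1742, 1681 and 1718 in WT PCB and 1376, 2199, 1298 and 1658 in WT DMSO spleens. Summed over the 15 replication genes, labelled-KO PCB spleens 1 to 5 had 87746, 40899, 90000, 90185 and 55416, against 55030, 51644, 48773, 55105 and 48399 in labelled-KO DMSO spleens. Summed over the 26 mitosis genes labelled-KO PCB spleens had 145993, 81136, 135639, 150569 and 104995, against 105091, 88315, 82000, 82368 and 79158 in labelled-KO DMSO spleens. Library 2 lay below the whole vehicle range for replication and inside it for mitosis genes.

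Further genes of the same pathways, outside the 41, were taken from lists by role. Of 50 other mitosis genes 16 rose and 0 fell (median log2 fold change 0.47, against -0.0079 over all genes), among them Troap (0.63), Cdc25b (0.55), a phosphatase that activates Cdk1, and the motors Kifc1 (0.59) and Kif2c (0.51). Of 48 other replication genes 3 rose and 0 fell (median 0.36). The 3 were the activator E2f2 (0.55), the clamp loader subunit Rfc5 (0.34) and the origin kinase Cdc7 (0.33). Of 15 G1 cyclins, CDKs and RB family genes 1 rose, E2f4 (0.42), which acts with the RB-like proteins. Of all genes 5.3% were called, 2.78% as higher. The replication and G1 lists held few calls, and their shares were not tested against those of all genes. Of 9 measured inhibitors Cdkn2d (0.52) and Gadd45a (0.47) rose and Btg1 fell by 0.41 on the log2 scale, all with a limma adjusted p under 0.05. Without labelled-KO PCB libraries 1 and 4 these 4 lists had 0 calls by limma, when 0.121% of all genes were called, and without library 2 they had 47, 44, 10 and 4 calls, when 19.4% were.

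Markers of several cell types differed between the same groups, in a comparison where 5.3% of all genes were called by limma. Erythroid markers (15 genes) summed to 321088, 254473, 283591, 296393 and 248368 in labelled-KO PCB spleens 1 to 5, against 246632, 217462, 170874, 164856 and 164896 in labelled-KO DMSO spleens, and 9 of 15 rose. B cell markers (7 genes) summed to 20173, 33095, 25180, 20726 and 34007 in labelled-KO PCB spleens, against 35915, 36900, 39047, 34231 and 44691 in labelled-KO DMSO spleens, and 6 of 7 fell. Libraries 1, 3 and 4, the highest for the 41 genes, were the lowest for the B cell sum. Neutrophil precursor markers (10 genes) summed to 2656, 5561, 4454, 3692 and 5821 in labelled-KO PCB spleens, against 2879, 3235, 2406, 2064 and 2917 in labelled-KO DMSO spleens, and 5 of 10 rose, with the highest sums in libraries 2 and 5. No gene of these 3 lists was at 0 in any spleen. T cell markers (7 genes, 0 called by limma, 3 with an unadjusted p under 0.05) summed to 3536, 5898, 4762, 3872 and 5989 in labelled-KO PCB spleens, against 5074, 5203, 5317, 5045 and 6313 in labelled-KO DMSO spleens, and were again lowest of their group in libraries 1, 3 and 4. Stellate and fibroblast markers (7 genes) summed to 25907, 29247, 31399, 20731 and 24763 in labelled-KO PCB spleens, against 19326, 18979, 22274, 20073 and 21509 in labelled-KO DMSO spleens, and 1 of 7 rose, the collagen gene Col1a1 (0.44). Macrophage markers (9 genes) summed to 16076, 27168, 16896, 17490 and 20887 in labelled-KO PCB spleens, against 21024, 23895, 18103, 21431 and 19739 in labelled-KO DMSO spleens, and library 2 was the highest of all spleens. Of precursor B cell markers 2 of 3 measured fell, and of the pancreatic genes 4 of 15 rose. Without libraries 1 and 4 no erythroid, B cell or pancreatic gene passed by limma and 4 neutrophil precursor genes did, when 0.121% of all genes were called. The part of these cell types in the rise of the mitosis genes was not tested.

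The remaining spleen comparisons had 0 of 41 genes called by limma, edgeR and DESeq2. For labelled-KO DMSO against WT DMSO, which asks about genotype without exposure, 0.0315% of all genes were called, and all 41 genes had a lower mean (median log2 fold change -0.25, 6 with an unadjusted p under 0.05), also under each scaling. These 6 are 14.6% of the 41, against 10.5% of all genes. Without WT DMSO library 3 the median was -0.14 and 2 genes had a higher mean. The smallest p-values were those of Cdc20 (-0.33 ± 0.12 on the log2 scale, SE, limma adjusted p = 0.384), Aurka (-0.40 ± 0.15) and Cdk1 (-0.37 ± 0.16). Aurka had 1300, 1213, 1126, 1163 and 1192 in labelled-KO DMSO spleens, against 1450, 1891, 1169 and 1971 in WT DMSO spleens. Cdk1 had 2175, 1866, 1759, 1847 and 1737 in labelled-KO DMSO spleens, against 2126, 3004, 1841 and 2883 in WT DMSO spleens. Bub1, a checkpoint kinase, was the member whose groups did not overlap, with 894, 896, 729, 846 and 817 in labelled-KO DMSO spleens, against 955, 1329, 918 and 968 in WT DMSO spleens, and 1.84% of all genes were lower without overlap. For Aurka and Cdk1 WT DMSO libraries 3 and 5 were higher than every labelled-KO DMSO spleen, and libraries 1 and 4 lay within the range of the labelled-KO DMSO spleens or just above it.

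For labelled-KO PCB against WT PCB spleens, 0.157% of all genes were called and 0 of the 41 genes had an unadjusted p under 0.05, against 10.9% of all genes. Of the 41 genes 29 had a higher mean (25 under quantile scaling, 39 by edgeR and by DESeq2), with a median log2 fold change of 0.09. Without labelled-KO PCB libraries 1 and 4 the median was -0.13 and 5 genes had a higher mean, while without library 2 it was 0.21 and all 41 genes had a higher mean. Without library 1, 3 or 4 alone, or WT PCB library 3, 4 or 5, it lay between 0.01 and 0.06. Smallest in p were Ube2c (0.25 ± 0.15 on the log2 scale, SE, limma adjusted p = 0.572), Nusap1 (0.19 ± 0.14) and Kif23 (0.17 ± 0.13). Nusap1 had 5028, 3060, 4818, 4856 and 3734 in labelled-KO PCB spleens, against 4386, 3692, 3362, 3521 and 3622 in WT PCB spleens. Kif23 had 2342, 1945, 1685, 1685 and 1851 in WT PCB spleens, inside the range of the labelled-KO PCB values above.

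For WT PCB against WT DMSO spleens, 0% of all genes were called. All 41 genes had a higher mean (40 under quantile scaling, by edgeR and by DESeq2), with a median log2 fold change of 0.14 and 1 unadjusted p under 0.05 (2.44%, against 3.82% of all genes). Without WT DMSO library 4, 28 genes had a higher mean and the median was 0.03. Without WT DMSO library 1 it was 0.08, and without library 3 it was 0.24. The gene with that p was Cenpe, a kinetochore motor, with 2952, 2495, 2141, 2438 and 1800 in WT PCB spleens, against 1770, 2056, 1581 and 1921 in WT DMSO spleens (log2 fold change 0.36 ± 0.17, SE, limma adjusted p = 0.943). Cenpf had 3277, 2733, 2428, 2611 and 2358 in WT PCB spleens, against 2103, 2646, 1826 and 2508 in WT DMSO spleens (0.24 ± 0.13), and Mki67 had 42756, 35164, 30079, 36338 and 30822 in WT PCB spleens, against 25780, 32476, 24246 and 37136 in WT DMSO spleens (0.24 ± 0.18). The groups overlapped for all 41 genes. The interaction, the exposure difference in labelled-KO minus that in WT spleens, had 0% of all genes called, 6 of the 41 with an unadjusted p under 0.05, and was above 0 for all 41 genes (median 0.32). That is 14.6% of the 41, against 9.85% of all genes. Without labelled-KO PCB libraries 1 and 4 it was above 0 for 34 genes, with a median of 0.11, and without library 2 for all 41, with a median of 0.48. Without WT DMSO library 3 the median was 0.22. It was 0.42 ± 0.16 for Cdc20 (SE, limma adjusted p = 0.442), 0.52 ± 0.21 for Aurka and 0.42 ± 0.19 for Tpx2. A rise called in labelled-KO spleens and not in WT spleens was thus not shown to differ between them. These comparisons share groups with each other and are not independent.

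In liver 0 of the 41 genes were called by limma or edgeR in any comparison, but in KO PCB livers most replication genes had a higher mean and most mitosis genes a lower one than in WT PCB livers. For KO PCB against WT PCB livers 1.45% of all genes were called, and 13 of the 41 had an unadjusted p under 0.05 (31.7%, against 10.7% of all genes). Of the 15 replication genes 13 had a higher mean (median log2 fold change 0.40), and all 6 subunits of the MCM helicase did (median 0.53). Of the 26 mitosis genes 21 had a lower mean (median -0.20). The counts were 13 replication genes higher and 22 mitosis genes lower under quantile, edgeR's TMM and DESeq2's scaling, and the median over all genes was 0.0021. The mitosis median was -0.10 without KO PCB library 2 and -0.31 without KO PCB library 4. For KO DMSO against WT DMSO livers 0.607% of all genes were called, and 8 of the 41 had an unadjusted p under 0.05 (19.5%, against 12.6% of all genes). Here 14 of 15 replication genes had a higher mean (median 0.34, MCM median 0.51), and the mitosis genes were spread around 0 (15 higher, median 0.03). Without KO DMSO library 5 the mitosis median was 0.21, and without KO DMSO library 3 it was -0.07.

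**Figure D3:**
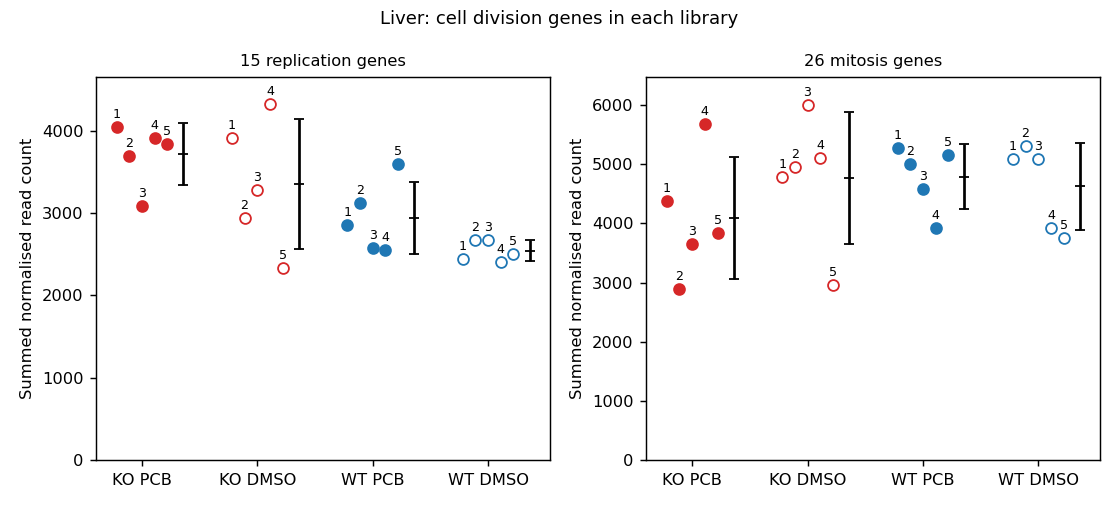
Summed normalised read counts of the 15 replication genes (left) and the 26 mitosis genes (right) in each liver library, with the number of the library above its point and the group mean ± SD beside it. KO PCB livers lie at 3085 to 4052 for the replication genes, against 2549 to 3599 in WT PCB livers, and KO DMSO library 5 is low in both panels.

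Summed over the replication genes, KO PCB livers 1 to 5 had 4052, 3689, 3085, 3916 and 3846, against 2853, 3123, 2580, 2549 and 3599 in WT PCB livers. KO DMSO livers 1 to 5 had 3910, 2936, 3285, 4332 and 2329, against 2446, 2678, 2677, 2411 and 2501 in WT DMSO livers. Of the KO values, 4 of 5 with PCB-153 and 4 of 5 with DMSO exceeded every value of their wild-type group. For the mitosis genes KO PCB livers had 4382, 2894, 3655, 5683 and 3841, against 5279, 5003, 4590, 3924 and 5160 in WT PCB livers. KO DMSO livers had 4781, 4953, 6012, 5112 and 2958, against 5090, 5309, 5087, 3916 and 3752 in WT DMSO livers. The mitosis sums overlapped between genotypes, and KO PCB library 4, the highest of its group, exceeded all WT PCB livers. KO DMSO library 5 was among the 3 lowest livers for 31 of the 41 genes, and KO PCB library 2 was the lowest liver for 13.

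**Figure D4:**
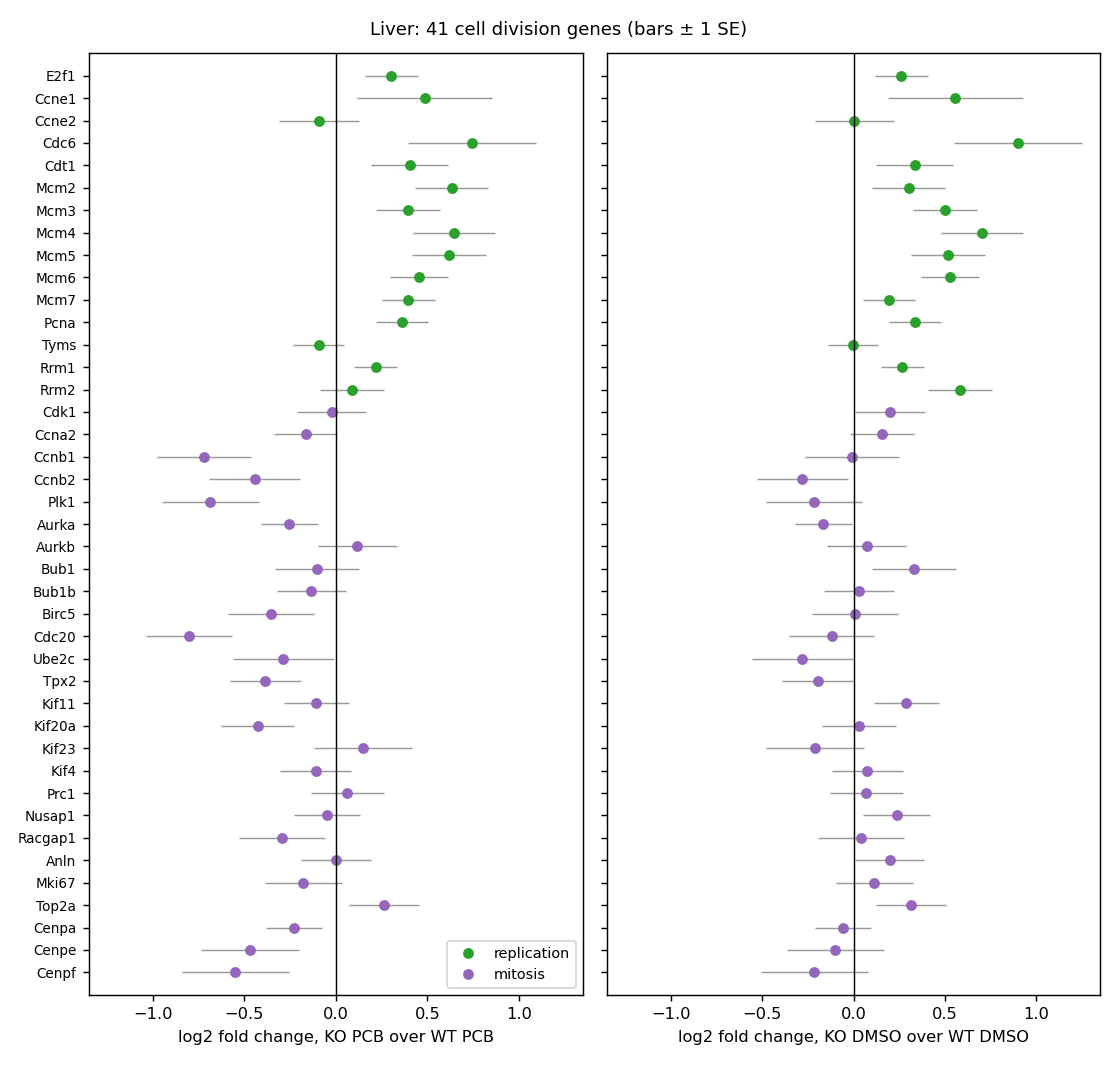
Log2 fold change of each of the 41 genes in liver, KO PCB over WT PCB (left) and KO DMSO over WT DMSO (right), with bars of ± 1 SE; replication genes are green and mitosis genes purple. Replication genes lie mostly right of 0 in both panels, and mitosis genes mostly left of 0 in the left panel and on both sides in the right one.

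The helicase showed the replication side. Mcm2 had 205, 152, 144, 182 and 202 in KO PCB livers, against 103, 139, 103, 78.1 and 158 in WT PCB livers, which differed by 0.63 ± 0.20 (SE) on the log2 scale (limma adjusted p = 0.163). Mcm5 had 268, 212, 219, 252 and 259.8 in KO PCB livers, against 140.3, 171, 153, 117 and 220.5 in WT PCB livers, a difference of 0.62 ± 0.20 (SE) on that scale (limma adjusted p = 0.188). In both genes WT PCB library 5 overlapped the KO PCB livers, and the other 4 lay below every KO PCB liver. In vehicle livers Mcm2 had 166, 104, 96.3, 193 and 109.9 in knockout and 93.95, 106, 107, 88.7 and 130.1 in wild type. Mcm5 had 281, 179.9, 168, 301 and 118 in KO DMSO and 130.4, 162, 149, 128 and 124 in WT DMSO livers. Mcm6 had 560.4, 435, 451, 619 and 317 in KO DMSO livers, against 292, 328, 329, 347 and 313 in WT DMSO livers (0.53 ± 0.16 on the log2 scale, SE, limma adjusted p = 0.156). For Mcm6 4 of the 5 KO DMSO livers exceeded every WT DMSO liver, and library 5 did not. Mcm4 had 176, 165, 148, 192 and 109.9 in KO DMSO livers, against 86.9, 87.9, 82.02, 97.4 and 126 in WT DMSO livers (0.70 ± 0.23, limma adjusted p = 0.188). After PCB-153 Mcm6 had 598, 536, 443, 549 and 630 in knockout and 391, 404, 328, 345 and 568 in wild-type livers, and Mcm4 had 182, 134, 124, 193 and 186 in KO PCB livers, against 86.2, 126, 92.05, 61.7 and 184 in WT PCB livers. Without WT PCB library 5, the highest of its group in both genes, limma called Mcm4 (0.85) and Mcm6 (0.58) after PCB-153. In that fit 2.09% of all genes were called.

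Rrm2, the regulated subunit of ribonucleotide reductase, had the smallest p between the vehicle livers, with 388, 302, 382, 492 and 202 in KO DMSO livers, against 203, 288, 222, 208 and 218 in WT DMSO livers. Its log2 fold change was 0.58 ± 0.17 (SE, limma adjusted p = 0.155), and DESeq2 on the recovered reads called it, as did the authors' deposited table. After PCB-153 Rrm2 had 298, 273, 265, 378 and 291 in knockout and 291, 278, 283, 237 and 323 in wild-type livers, which overlapped. Without KO DMSO library 5 limma called 2 genes, Rrm2 (0.77) and Mcm6 (0.67), when 0.916% of all genes were called. Pcna had 730.4, 736, 570, 737 and 637 in KO PCB and 541, 539, 422, 526 and 629 in WT PCB livers. In vehicle livers Pcna had 692, 490.5, 629, 774 and 417 in knockout and 488, 468, 504, 440.1 and 422 in wild type. Ccne1 was among the lowest of the 41, with 17.2, 32.7, 21.8, 30.1 and 31.8 in KO PCB and 29.1, 29.1, 10.01, 19.5 and 12 in WT PCB livers. Without exposure Ccne1 had 24.7, 16.1, 20.8, 37.5 and 15.96 in knockout and 5.87, 20.7, 19.6, 9.85 and 26.3 in wild-type livers, so its groups overlapped in both comparisons.

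On the mitosis side Cdc20 had the smallest p after PCB-153. It had 220.5, 152, 225, 449 and 263 in KO PCB livers, against 517, 486, 432, 278 and 481 in WT PCB livers, a difference of -0.80 ± 0.23 (SE) on the log2 scale (limma adjusted p = 0.108). Without KO PCB library 4 (449) Cdc20 passed the limma test at -1.02, and without WT PCB library 4 (278) at -0.96. In these fits 1.17% and 1.1% of all genes were called. In vehicle livers Cdc20 had 318, 442, 398, 366 and 222 in knockout and 431, 405, 423, 291 and 319 in wild type. Cyclin B1 (Ccnb1) had 113, 58.99, 121, 201 and 141 in KO PCB and 211, 206, 199, 155 and 211 in WT PCB livers. Without exposure Ccnb1 had 196, 249, 219.6, 195 and 100.5 in knockout and 199.6, 257, 179.9, 172 and 136 in wild type. KO PCB library 4 was in the wild-type range for both genes, and the other 4 KO PCB livers had less Cdc20 and Ccnb1 than every WT PCB liver.

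The proliferation marker Mki67 and Top2a overlapped between genotypes. Mki67 had 572, 349, 451, 747 and 522 in KO PCB and 613, 615, 544, 570.5 and 559 in WT PCB livers, and 638, 549, 784, 640.1 and 353 in KO DMSO and 652, 733, 569, 405 and 380.4 in WT DMSO livers. Top2a had 348, 236, 209, 370.5 and 318 in KO PCB and 213, 267, 223, 184 and 348 in WT PCB livers, and 361, 294, 364, 362 and 205 in KO DMSO and 254, 269, 303, 232 and 200.2 in WT DMSO livers. Top2a had a higher mean in knockout livers under either exposure (log2 fold change 0.26 ± 0.19 with PCB-153 and 0.31 ± 0.19 with DMSO, SE).

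Within knockout livers, KO PCB against KO DMSO had 0% of all genes called and 5 of the 41 with an unadjusted p under 0.05 (12.2%, against 9.86% of all genes). There, 12 of 15 replication genes had a higher mean (median log2 fold change 0.24) and 23 of 26 mitosis genes a lower one (median -0.22). The smallest p-values were those of Ccnb1 (-0.63 ± 0.26, SE, limma adjusted p = 0.463), Mcm2 (0.44 ± 0.20) and Cdt1 (0.46 ± 0.21), the licensing factor. Cdt1 had 159.8, 142, 99.1, 113 and 133 in KO PCB livers, against 111, 72.9, 88.5, 137 and 67.6 in KO DMSO livers. Without KO PCB library 2, 18 mitosis genes had a lower mean and the median over the 41 genes was 0.0060, against -0.13 with it. That median was -0.28 without KO DMSO library 5, -0.04 without library 3 and -0.05 without library 4.

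In wild-type livers, WT PCB against WT DMSO had 0% of all genes called, 1 of the 41 with an unadjusted p under 0.05 (2.44%, against 6.69% of all genes), and a higher mean in 31 of 41 genes (median 0.11). Without WT DMSO library 5, 24 genes had a higher mean (median 0.03), without WT DMSO library 4, 28 did (median 0.03), and without WT PCB library 5, 26 did (median 0.05). The gene with that p was Mcm3, with 191, 239, 165, 134 and 264 in WT PCB livers, against 127, 131, 172, 146 and 155 in WT DMSO livers (0.41 ± 0.17 on the log2 scale, SE, limma adjusted p = 0.717). Mcm6 followed at 0.31 ± 0.16 and Cdt1 at 0.39 ± 0.21, with Cdt1 at 87.3, 117, 82.05, 77.1 and 126 in WT PCB and 101, 89.2, 72.7, 56.9 and 55.1 in WT DMSO livers. The interaction had 0% of all genes called and 0 of the 41 with an unadjusted p under 0.05 by limma (against 2.69% of all genes), and 0 by edgeR and DESeq2. It was -0.68 ± 0.33 for Cdc20 (SE, limma adjusted p = 1), -0.50 ± 0.25 for Rrm2 and -0.71 ± 0.36 for Ccnb1.

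Of the further cell cycle genes in liver, 1 was called, Mcm10, which helps to start the replication fork. Mcm10 had 285, 284, 121, 241 and 240.1 normalised reads in KO PCB livers, against 821, 662, 526, 773 and 251 in WT PCB livers. Mcm10 fell by 1.32 on the log2 scale (limma adjusted p = 0.0158), opposite to the 6 helicase subunits. Sequence shared with other genes was examined for the 41 genes only, so it is not known for Mcm10. WT PCB library 5 (251) lay within the range of the KO PCB livers. With 1 library left out the Mcm10 fold change was -1.61 to -1.10 on the log2 scale, and 4 of 20 fits lost its call. In vehicle livers Mcm10 had 321, 467, 340.2, 325 and 389 in knockout and 406, 829, 887, 532 and 572 in wild type. The other lists (50 mitosis genes, the other replication genes tested, 15 G1 genes and 9 inhibitors) had 0 calls by limma in that comparison. Among the cell type markers, Alas2, which starts heme synthesis in red cell precursors, fell by 1.40 on the log2 scale (limma adjusted p = 0.00166), the 1 call among 5 erythroid genes tested. Cela1, a pancreatic elastase, fell by 1.11 (limma adjusted p = 0.0115), the 1 call among 3 acinar genes tested. Erythroid markers summed to 750 to 1053 in KO PCB livers, against 838 to 1642 in WT PCB livers, with up to 6 of 15 genes at 0, and B cell markers to 30 to 111 in KO PCB livers, against 51 to 107 in WT PCB livers. Their part in the values of the 41 genes was not tested.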

How the data were processed

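RNA-seq libraries of liver (20) and spleen (19) were sequenced on a HiSeq4000, each tissue in its own lane. Per the submitters' processing notes the reads were handled with FastQC, STAR 2.6.0, featureCounts and DESeq2, given as version 3.8, on mm10. The labels name 2 kits, one of them stranded, and whether counting used strand is not given in what was used here. The deposited signal is a read count per gene divided by 1 size factor per library. Whole reads were recovered from it, with 100% of values whole within 0.05 reads.

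From these values limma 3.58.1 (R 4.3.3) was fitted on log2(value + 1), with the 4 groups of a tissue in 1 fit, genes with a mean of at least 10 (16155 in liver, 19058 in spleen) and Benjamini-Hochberg adjustment over all of them. The unit called for limma rather than a count test. A gene was called at an adjusted p under 0.05. Per the file headers, the authors' own tables give a log2 fold change and a p-value per gene, and only calls were taken from them. Count tests on the recovered reads, edgeR 4.0.16 and DESeq2 1.42.0, were alternatives, with other pseudocounts, filters, scaling, a replicate block and each library left out. Data were simulated for the KO PCB against KO DMSO comparison, with genes changed by a log2 of 0.5, 1 and 2. In spleen 40%, 86% and 98% of them were recovered, and in liver 28%, 77% and 96%. Each gene was drawn independently, so no shift of a library shared by many genes was simulated.

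Values are given per library for Mki67, Top2a, Ccnb1, Pcna, Mcm5 and Ccne1, and for the called genes of a comparison (6 at most, by p) or the 3 with the smallest p. Other genes whose values are given were added after these were seen. The 41 genes and all lists were chosen with earlier results of these data known. Depth was 15.23 to 28.65 M reads per liver library and 16.1 to 29.52 M per spleen library. The median SE of a log2 fold change was 0.17 in liver.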

Additional observations from a re-analysis of the deposited data

Results flagged for a closer look

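In 144 groups of 4 or 5 libraries of the named genes, 5 held a library far from the others, by the gap between its value and the next one against the range of the group. Chance flags about 1 in 20 such groups. In spleen Cdc20 had 1445 in labelled-KO DMSO library 1, against 1312 to 1335 in the other 4. Racgap1 had 2185 in the same library, against 1771 to 1808. Tpx2 had 3557 in WT PCB spleen 1, against 2928 to 3090. In liver Ccnb1 had 155.2 in WT PCB library 4, against 199.1 to 211.3 in the other 4, and Rrm2 had 288.3 in WT DMSO library 2, against 203.2 to 221.8.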

How the results depend on the processing

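In spleen, labelled-KO PCB against labelled-KO DMSO, the count moved most. Of the 13 called genes, 1 (Cdc20) remained with a fit of the 2 compared groups and 1 (Cdc20) with no filter on low values, when the median fold change was 0.45 as before and 0.965% and 0.64% of all genes were called. None passed without labelled-KO PCB libraries 1 and 4 (0 calls by limma), and 35 passed by DESeq2. Leaving out 1 library gave 0 to 41 calls. There were 41 without labelled-KO PCB library 2 and 25 without library 5, when 3704 and 2224 of all 19058 genes were called. Without library 1, 3 or 4 there were 0, when 42, 16 and 10 of all genes were called. Of the labelled-KO DMSO libraries, leaving out library 2 gave 1 call, when 403 of all genes were called. Leaving out library 3, 4 or 5 gave 0, when 42, 118 and 20 of all genes were called. Without WT PCB library 2 there were 7 and without WT PCB library 3 there were 8, when 756 and 782 of all genes were called. Neither library is in the comparison, but the 4 groups share 1 spread in the fit. The sum of the 41 genes had an SD of 52540 in labelled-KO PCB and 12727 in labelled-KO DMSO spleens. In WT PCB spleens it was 15143 and in WT DMSO spleens 32094. In liver, KO DMSO against WT DMSO had 0 to 2 calls when 1 library was left out. The 2 came without KO DMSO library 5, when 0.916% of all genes were called. By DESeq2 it had 1, when 0.823% of genes with a p-value were called. KO PCB against WT PCB had 0 to 2, and the 2 came without WT PCB library 5, when 2.09% of all genes were called. The cause was not tested. Settings without a filter test more genes, and those without a library have fewer samples. Kif23 in labelled-KO PCB against WT PCB spleens reversed to -0.0070 without libraries 1 and 4.

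The replicate numbers were not used as pairs, and whether they pair the samples was not tested. With a replicate block 10 of the 41 genes were called in spleen, labelled-KO PCB against labelled-KO DMSO, when 813 of 19058 genes were. The correlations below are not of expression levels. They were taken over all genes tested, between the libraries' deviations from their own group means on the log2 scale. Same-numbered libraries of different groups so correlated at -0.378 to 0.449 in liver (30 pairs, 10 over 0.1, median 0.031). Differently numbered ones correlated at -0.477 to 0.5 (120 pairs, 31 over 0.1, median -0.01). In spleen same-numbered libraries correlated at -0.229 to 0.271 (27 pairs, 9 over 0.1, median 0.064). Differently numbered ones there correlated at -0.322 to 0.435 (108 pairs, 19 over 0.1, median -0.006). For single named genes, under settings that keep every library or leave out libraries 1 and 4 together, 474 values stayed on the same side of the threshold, 78 lost a call, 5 gained one and 1 reversed. With 1 library left out 903 stayed, 202 lost a call, 13 gained one and 0 reversed. The median SE of a spleen fold change was 0.123 to 0.13 on the log2 scale, at 16.1 to 29.52 M reads per library.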
